A study of Mus musculus with 6 samples.

Results

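A set of 2857 open-chromatin regions lay between genes and was missing from Utx-knockout bone marrow progenitors. These regions are described here. Open chromatin had been profiled by ATAC-seq, where a transposase tags accessible DNA, in 3 knockout (KO) and 3 wild-type (WT) samples of C57BL/6 mice. Utx, whose gene symbol is Kdm6a, was labelled absent in KO mice and intact in WT mice. The cells had been depleted of mature lineages from bone marrow, which enriches stem and progenitor cells, and no treatment or time differed between the groups. The labels used here do not say how the gene was deleted, in which cells, or at what age the mice were taken, nor whether animals were pooled or each sample came from its own animal. Spread between the 3 samples of a group, which may be technical, is thus all that a p-value here reflects.

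The members were chosen from the deposited peak lists. Overlapping peaks (1 bp or more in common) from the 6 lists were joined, which gave 75961 regions. A region was lost when none of the 3 KO samples and each of the 3 WT samples had a peak in it, which held for 8042 regions. It lay between genes when it overlapped no protein-coding gene span of RefSeq (assembly GRCm38.p6, the same as mm10) extended by 1 kb on both sides. Of 26783 regions between genes, 14790 had a peak in all 3 WT samples, and 2857 of these, 19.3%, were the members. The presence and absence of peaks thus define the set, so the values that chose it are a description and carry no test. The lists hold coordinates without read counts or scores. The depth behind them is unknown, and a peak's width in bp is the only size they give.

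Open regions far from genes are mostly enhancers and other distal elements, which transcription factors hold open and which can act on promoters over long distances. In red cell and platelet precursors many such elements are bound by GATA factors, together with cofactors such as FOG1 (gene Zfpm1) and the LMO2, TAL1 and LDB1 complex, whereas ETS factors such as PU.1 act widely in progenitors. UTX belongs to the COMPASS-like complexes, which are best known for work at enhancers.

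Some members can be read as sequence because a RefSeq transcription start of a long non-coding RNA (lncRNA) lies in them. The windows below, from 250 bases before to 50 bases after such a start, are copied from RefSeq (GRCm38.p6) for the 5 widest members that hold a whole window. A second window from the Lmo2 locus, Gm39895, was added as an example picked outside this width rule. Only 33 members held a whole window, and the windows used did not cover every chromosome. The printed windows are thus examples of DNA no longer called open, and do not show what kind of DNA the members are. Capitals mark a GATA motif (AGATAA or TGATAA), an ETS motif (GGAAGT) or an AP-1 motif (TGAGTCA or TGACTCA) on either strand. In Gm34948 the ETS and AP-1 matches overlap.

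Gm34948 (chr2:103896217-103896516, minus strand): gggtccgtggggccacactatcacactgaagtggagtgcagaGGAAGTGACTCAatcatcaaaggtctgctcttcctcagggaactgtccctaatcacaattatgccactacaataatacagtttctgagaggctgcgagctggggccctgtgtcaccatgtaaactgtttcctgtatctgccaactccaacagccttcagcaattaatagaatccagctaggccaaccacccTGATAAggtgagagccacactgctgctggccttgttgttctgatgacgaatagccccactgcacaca

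Gm39895 (chr2:103893810-103894109, plus strand): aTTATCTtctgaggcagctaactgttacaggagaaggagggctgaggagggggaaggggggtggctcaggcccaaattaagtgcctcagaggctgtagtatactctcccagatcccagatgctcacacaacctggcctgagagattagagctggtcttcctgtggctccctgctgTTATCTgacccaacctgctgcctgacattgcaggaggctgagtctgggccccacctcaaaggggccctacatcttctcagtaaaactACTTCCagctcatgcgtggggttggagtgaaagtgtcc

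Gm34253 (chr11:102375219-102375518, plus strand): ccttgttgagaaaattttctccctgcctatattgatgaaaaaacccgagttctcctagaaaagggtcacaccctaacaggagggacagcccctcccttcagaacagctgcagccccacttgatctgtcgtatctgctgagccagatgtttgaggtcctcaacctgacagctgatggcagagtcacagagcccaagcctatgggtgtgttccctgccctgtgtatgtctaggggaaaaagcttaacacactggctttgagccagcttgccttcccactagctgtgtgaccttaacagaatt

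Gm41638 (chr17:83959508-83959807, minus strand): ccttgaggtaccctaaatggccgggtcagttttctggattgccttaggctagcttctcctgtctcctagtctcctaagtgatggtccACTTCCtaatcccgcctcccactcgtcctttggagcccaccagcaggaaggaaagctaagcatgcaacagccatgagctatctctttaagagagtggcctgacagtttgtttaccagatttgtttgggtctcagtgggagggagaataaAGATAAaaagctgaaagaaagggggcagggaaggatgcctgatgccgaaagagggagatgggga

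Gm31452 (chr13:107063398-107063697, plus strand): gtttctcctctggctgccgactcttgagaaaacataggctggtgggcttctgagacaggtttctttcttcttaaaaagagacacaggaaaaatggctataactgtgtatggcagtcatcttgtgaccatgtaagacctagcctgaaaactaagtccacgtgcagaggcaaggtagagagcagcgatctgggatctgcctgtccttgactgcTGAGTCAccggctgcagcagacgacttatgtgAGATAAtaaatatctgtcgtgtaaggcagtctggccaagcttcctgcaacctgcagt

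Gm52919 (chr6:127321112-127321411, minus strand): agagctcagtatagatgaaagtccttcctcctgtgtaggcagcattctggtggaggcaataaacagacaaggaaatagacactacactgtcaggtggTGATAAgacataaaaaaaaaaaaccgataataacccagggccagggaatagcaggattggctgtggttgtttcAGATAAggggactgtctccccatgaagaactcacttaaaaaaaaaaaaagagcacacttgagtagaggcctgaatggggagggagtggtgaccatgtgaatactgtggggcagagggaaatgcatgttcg

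The first 2 windows lie in members 60627 and 63611 bp from Lmo2, which encodes the bridging protein of the GATA and TAL1 complex. Gm34253 lies in a member 9748 bp from Slc4a1, the gene of the red cell anion exchanger band 3, and holds no match to any of the 3 motifs. The member with Gm41638 is nearest to Haao at 109576 bp, the one with Gm31452 to Kif2a at 40902 bp and the one with Gm52919 to Parp11 at 125072 bp.

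GATA letters were more frequent under the lost regions than under the regions kept open, a description for which no test was made. For 62 members a promoter window of this kind overlapped the region by at least 150 bp, and 33 of the 62 windows (53.2%) held a GATA motif. Among regions between genes with a peak in all 6 samples, 93 of 387 windows (24.0%) held one, and among all 7258 windows between genes 27.2% did. Over all 32817 promoter windows of the table the share was 18.6%. At least 2 matches were found in 14 of the 62 windows (22.6%) of lost regions and in 12 of 387 (3.10%) of regions in all 6 samples.

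Base composition differed little between these sets. The median GC content was 50% in windows of lost regions and 52% in those of regions in all 6 samples. The GATA letters in reversed order (AATAGA or AATAGT) occurred in 17 of 62 windows (27.4%) of lost regions and in 71 of 387 (18.3%) of regions in all 6. ETS letters did not follow the GATA pattern, with 18 of 62 (29.0%) against 131 of 387 (33.9%), and AP-1 letters were found in 8 of 62 (12.9%) against 27 of 387 (6.98%). In reversed order, the ETS letters (TGAAGG) were in 32.3% against 18.6%, and the AP-1 letters in 11.3% against 4.39%. Reversed letters, which are not the motif, were thus more frequent in lost regions for each motif, GATA included. For GATA the reversed letters differed by less than the motif did.

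The difference in GATA letters lay mainly in the wider members. Where the mean WT peak was 600 bp and over, 12 of 18 windows (66.7%) of lost regions had the motif, against 51 of 230 (22.2%) of regions in all 6 samples. From 400 to under 600 bp the counts were 14 of 19 (73.7%) against 28 of 98 (28.6%), and under 400 bp they were 7 of 25 (28.0%) against 14 of 59 (23.7%). Regions outside the set had similar shares, with 31 of 66 windows (47.0%) in lost regions inside genes and 41 of 89 (46.1%) in lost regions at gene ends. Of 17 windows in regions gained between genes, 3 (17.6%) did. These are matches of letters in the small part of the members that carries a RefSeq start, and they are not shown to be bound sites.

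**Figure D1:**
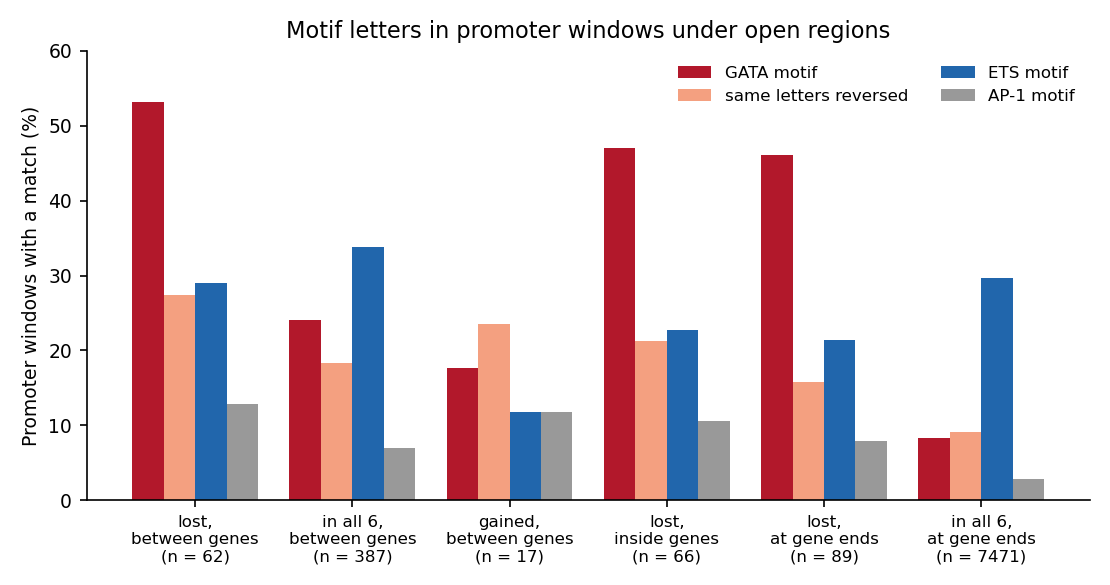
Bars give the percentage of RefSeq promoter windows (y axis) that hold a GATA, ETS or AP-1 motif, or the GATA letters reversed, with 1 window per region and the number of windows under each set. The GATA bar stands at 53.2% for lost regions between genes and at 24.0% for regions between genes found in all 6 samples.

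Samples that had no part in a choice mostly showed the same direction. When the choice used 2 KO and 2 WT samples, over all 9 ways of leaving 1 of each out, 3499 to 4561 regions between genes were picked. The KO sample that had been left out had a peak in 4.86% to 21.2% of them and the WT sample that had been left out in 79.0% to 87.4%. Over all 14790 regions between genes of the 3 WT samples, KO samples 1, 2 and 3 had peaks in 70.3%, 76.5% and 67.5%. The highest KO shares, 19.2% to 21.2%, came from KO sample 2, which also has the longest KO list, and the lowest, 4.86% to 5.57%, from KO sample 3. For WT samples no share over all regions was computed. Without WT sample 1, 2 or 3, 16082, 15637 and 16332 regions between genes were in both other WT samples, and 14790 were in all 3. Most regions of 2 WT samples thus had a peak in the third, whatever the KO samples showed. By these counts the 79.0% to 87.4% of the chosen regions lay below the share over all regions. The WT shares are therefore no sign of a trait of the chosen regions.

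**Figure D2:**
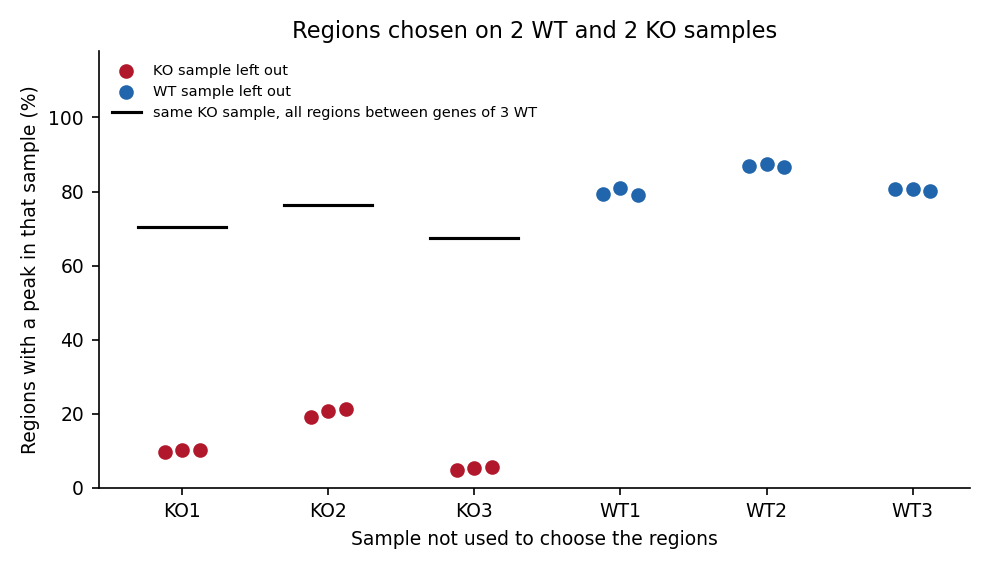
Each point is the percentage of regions between genes (y axis), chosen on 2 KO and 2 WT samples without it, that had a peak in the sample on the x axis. Black lines give the share of all regions between genes of the 3 WT samples with a peak in that KO sample, and WT samples have no such line. Points of KO samples reach at most 21.2% while those of WT samples start at 79.0%.

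Over all positions, KO samples 1, 2 and 3 had 45260, 50249 and 44576 peaks, and WT samples 1, 2 and 3 had 57405, 57917 and 57622. KO lists were thus shorter as a whole. Between genes they also held fewer peaks, and the share of these among all peaks differed by less than the spread between samples. KO samples 1, 2 and 3 had 14774, 17042 and 14680 peaks there, and WT samples 1, 2 and 3 had 19034, 19251 and 18754. The groups did not overlap, and the difference of the means was -3514 peaks (15499 ± 1337 in KO, 19013 ± 249 in WT, SD, n = 3 each, two-sided exact permutation p = 0.1, the smallest that 3 against 3 allows). As a share of all peaks this was 33.2% ± 0.667 in KO and 33.0% ± 0.378 in WT (SD, n = 3 each). These shares overlapped (exact permutation p = 0.8). With other settings the KO shares lay wholly above the WT shares, by 1.97 percentage points with equal list lengths, 0.731 with a gene window of 5 kb and 0.980 with one of 10 kb (exact permutation p = 0.1 each). The median peak between genes was 370 ± 4.04 bp wide in KO and 359 ± 2.08 bp in WT (n = 3 each, exact permutation p = 0.1). Equal list lengths were reached by keeping the widest peaks of each sample, which removed narrow peaks, mainly from the longer WT lists. After this cut the number of peaks between genes and their median width both turned direction. The KO minus WT differences were then 879 peaks and -44 bp (exact permutation p = 0.1 each). A cut by width can itself move these values and the 1.97 points above, so they do not compare the genotypes.

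Kdm6a itself had 6, 6 and 5 peaks over its extended span in KO samples 1 to 3 and 4, 5 and 5 in WT samples 1 to 3, which does not check the deletion. Peaks at gene ends were counted for markers of blood lineages. The share of all protein-coding genes with such a peak was not counted beside them, and KO lists were shorter as a whole. Of all regions at gene ends in all 3 WT samples, 4.61% (547 of 11854) were lost. A peak within 1 kb of an end was present for 22 to 25 of 43 GATA and erythroid genes in KO samples and for 35 to 36 in WT samples. The counts were 7 to 8 against 12 to 14 of 18 megakaryocyte and platelet genes, and 16 to 18 against 11 to 12 of 19 B lymphoid genes. Stem and progenitor genes had 15 to 16 of 20 in KO and 17 to 19 in WT, and granulocyte and monocyte genes 17 to 21 of 24 in KO and 20 to 21 in WT. T and NK genes had 4 to 5 of 18 in both, stroma and endothelium genes 3 of 12 in every sample, dendritic cell genes 7 to 8 of 10 in KO and 7 to 9 in WT, and mast cell and basophil genes 3 to 6 of 12 in KO and 5 to 7 in WT. In bulk samples, fewer cells of a type and less open chromatin per cell cannot be told apart, and the part of these markers in the results below was not tested.

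Members were short, and their peaks were widest in WT sample 3 by the median. Their merged spans ran from 220 to 3240 bp with a median of 424 bp, against 581 bp for regions between genes in all 6 samples. The median peak in a member measured 320, 341 and 386 bp in WT samples 1, 2 and 3. In regions of all 6 samples, medians were 427, 464 and 423 bp in KO samples 1 to 3 and 465, 457 and 440 bp in WT samples 1 to 3. Among the members, widths correlated between pairs of WT samples with Spearman's rho of 0.693 to 0.785 over 2857 regions, and the median coefficient of variation over the 3 samples was 15.5%. These regions are not independent, and each pair shares the same merged spans. Neither measure was computed for other regions, so members are not shown to be steadier in width.

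Loss went with narrow WT peaks. Between genes, 999 of 2973 regions (33.6%) with a mean WT width under 300 bp were lost, and 47 of 788 (5.96%) at 1000 bp and over. In the 3 classes from 300 to under 1000 bp the share lay between 14.7% and 17.4%. In each of the 5 width classes the share of regions lost between genes lay below that inside genes and above that at gene ends. From 600 to under 1000 bp it was 14.7% between genes, 17.8% inside genes and 2.61% at gene ends. Over all widths 19.3% of the regions between genes of the 3 WT samples were lost, compared with 23.6% inside genes and 4.61% at gene ends.

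**Figure D3:**
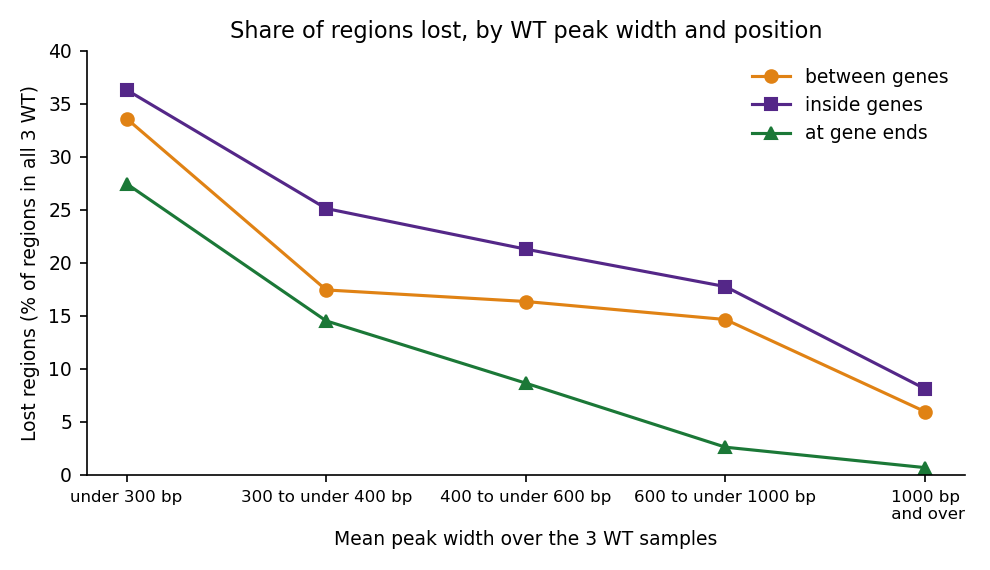
Points give the percentage of regions present in all 3 WT samples that had no KO peak (y axis), by mean WT peak width (x axis), for regions between genes, inside genes and at gene ends. Between genes the share was 33.6% under 300 bp and 5.96% at 1000 bp and over.

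Near misses were numerous. Between genes, 1270 further regions had peaks in 1 KO sample and in all 3 WT samples, and 1559 in 2 KO and all 3 WT samples. KO peaks also lay close to many members, with a median distance of 6619 bp to the nearest peak of any KO sample. In 9.45% of members a KO peak lay within 1 kb without touching the region, and in 9.10% none lay within 50 kb. For the 1587 regions gained between genes, the nearest WT peak was at a median of 7569 bp, and 9.96% had one within 1 kb.

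At the limit of the gene window, the members closest to a gene lay 1003 bp from Liph, 1004 bp from Septin6 and 1020 bp from Nprl3. The lost regions just short of it lay 988 bp from Pank2, 987 bp from Acvrl1 and 960 bp from Fam167a. The Nprl3 gene holds the distal enhancers of the alpha-globin genes. The member beside it, on chromosome 11 at 32268728 to 32269476, had peaks of 566, 552 and 749 bp in WT samples 1 to 3.

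Members lay no farther from genes than regions that stayed open. Their distance to the nearest protein-coding gene had a median of 19074 bp, against 19464 bp for regions between genes in all 6 samples, and 14.9% against 14.5% lay more than 100 kb away. Regions gained between genes stood farther out, with a median of 39011 bp and 26.0% beyond 100 kb. The share lost hardly changed with distance, from 20.3% at 1 to 5 kb to 18.7% at 10 to 50 kb and 19.4% over 100 kb. Where the promoter table gives a strand for the nearest gene (2302 members), 1388 members lay upstream of it and 914 downstream. The sides were not counted for other regions, so this is not shown to be particular to the members. By chromosome the share lost ran from 16.3% on chromosome 12 to 21.6% on chromosome 6, apart from chromosome Y with 0 of 4. On chromosome X, where Kdm6a lies, it was 19.6% (60 of 306).

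Lost regions had lost neighbours. Of the other regions of the 3 WT samples within 50 kb of a member, counted once for each member, 25.3% were lost, against 14.0% around regions between genes in all 6 samples. Within 10 kb the shares were 29.2% and 12.9%. With members chained where neighbours stood at most 50 kb apart, 1398 of the 2857 (48.9%) fell into 531 runs of 2 or more, and 39 runs had at least 5. Other regions were not chained in this way, so the run counts alone do not show that loss was clustered. The nearest gene had itself lost a region inside it or at its ends for 32.2% of members and for 26.4% of regions in all 6 samples.

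A run of 10 members lay across the beta-globin cluster on chromosome 7, from 103792945 to 103913400. Of 12 regions between genes there in all 3 WT samples, 0 had a peak in all 6. On the upstream side of Hbb-y, the embryonic globin gene of the cluster, the locus control region, a group of strong erythroid enhancers, is known to lie. The members nearest to Hbb-y lay 1469, 5634 and 12196 bp upstream of it. They measured 342, 387 and 416 bp, then 511, 526 and 999 bp, then 838, 607 and 638 bp in WT samples 1 to 3. All KO samples were without a peak in them, as the choice of members requires. Past them, members of 693, 741 and 871 bp and of 442, 468 and 524 bp are counted with the olfactory receptor gene Olfr66, which flanks the globin genes. Beside the adult genes, a member of 657, 1183 and 1016 bp lay 2362 bp downstream of Hbb-bt and one of 303, 320 and 681 bp lay 1333 bp downstream of Hbb-bs. Across the mapped stretch, KO samples 1 to 3 had 1, 3 and 2 peaks in all and WT samples 1 to 3 had 19, 18 and 20.

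Another run of 10 held every one of the 10 regions found there in all 3 WT samples. It lay on chromosome 1 from 193589055 to 193699204, in a gene-poor stretch 218699 bp upstream of Camk1g, a kinase gene, and 920586 bp from Plxna2. The lncRNA gene Gm31870 overlapped 7 of these members. The 2 with the highest mean widths had peaks of 776, 895 and 1025 bp and of 818, 683 and 971 bp in WT samples 1, 2 and 3. KO samples had 1 or 2 peaks in the mapped stretch and WT samples 14 to 16. Of the WT peaks, 10 or 11 in each sample lay in members, so the choice fixes most of this difference.

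Beyond Myc, which encodes a growth-promoting transcription factor, 8 members made a run on chromosome 15 from 62098891 to 62223705, and 9 members in all were nearest to this gene. All 9 overlapped Pvt1, a lncRNA gene next to Myc. They lay 52599 to 232064 bp past the gene. The farthest member had peaks of 854, 811 and 1190 bp in WT samples 1 to 3. Not all of the stretch closed, since 14 of the 25 regions between genes nearest to Myc had a peak in all 6 samples and 4 further ones nearest to it were gained.

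Between Tbc1d1 and Gm38457, downstream of both, a run of 8 members on chromosome 5 (64567713 to 64626701) took 8 of 9 regions of the 3 WT samples, with mean widths of 240 to 566 bp. The last of the 5 largest runs reached up to Lmo2 on chromosome 2, from 103842387 to 103956018, with 7 members of 16 regions. The pair of windows printed above for Gm34948 and Gm39895 come from it. The member with Gm34948 had peaks of 1271, 1203 and 1205 bp in WT samples 1 to 3, and the one with Gm39895 had 636, 830 and 656 bp. A member 25050 bp from Lmo2 had 748, 962 and 1220 bp. In the same span 7 regions had a peak in all 6 samples.

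**Figure D4:**
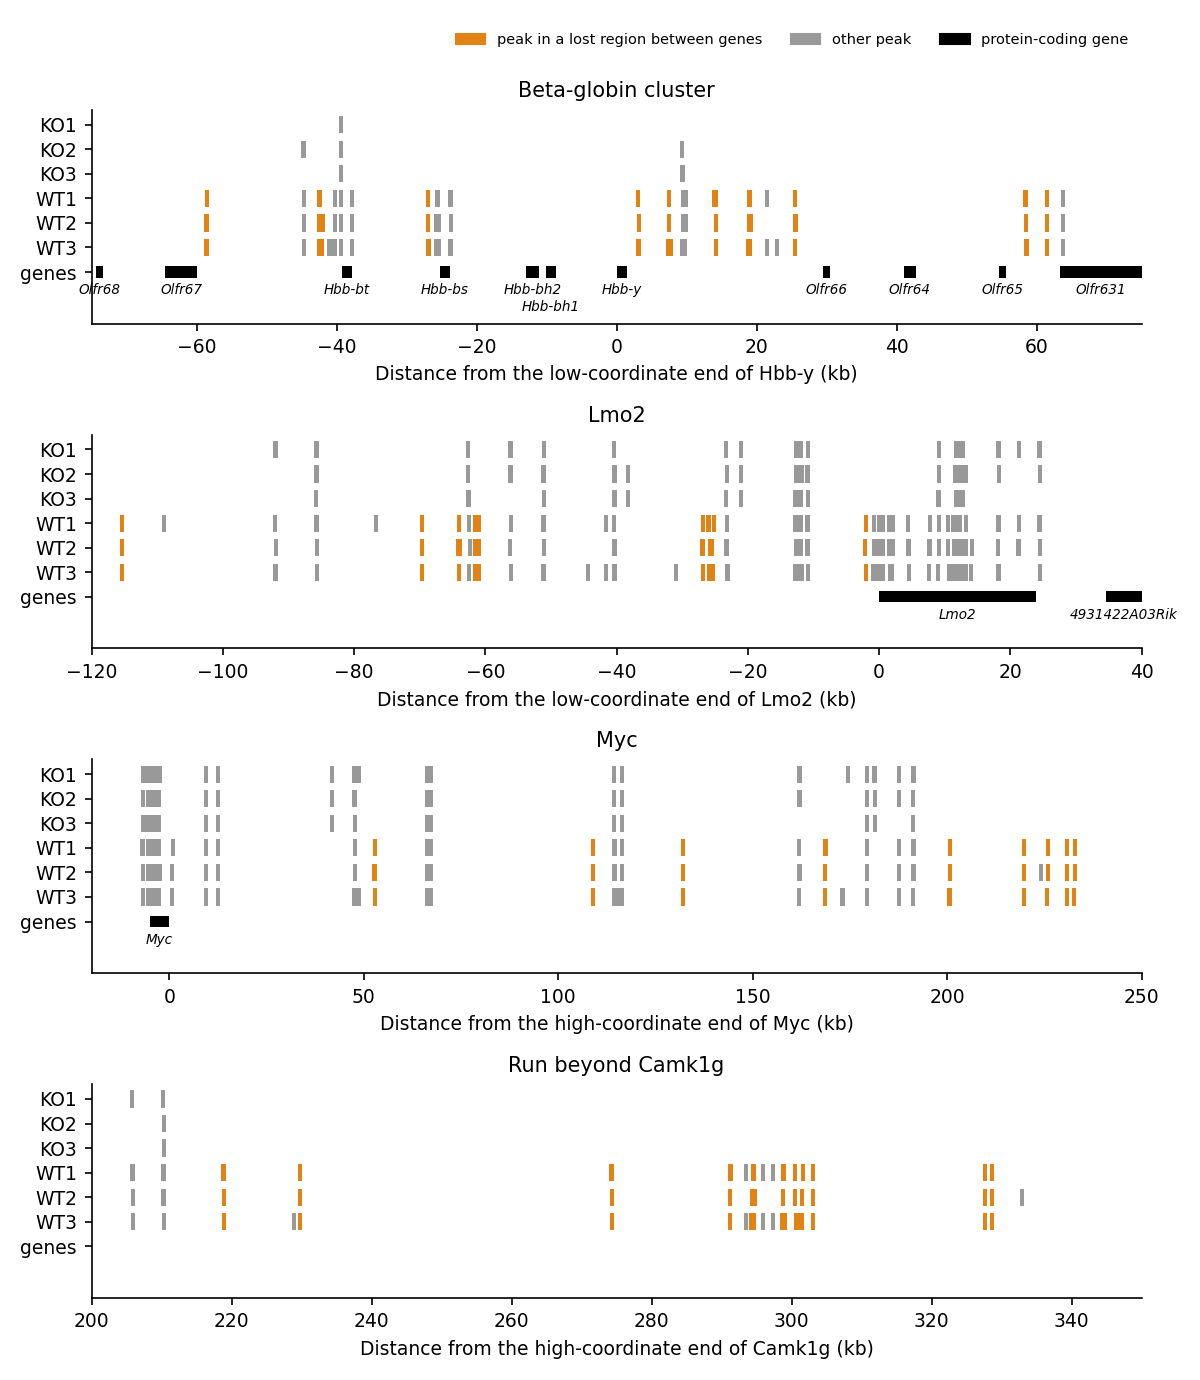
Each bar is a called peak in 1 sample (rows, KO samples above WT samples), placed by its distance in kb from the named end of a gene (x axis), with protein-coding genes below. Orange bars are peaks in lost regions between genes and appear in the WT rows alone, as the choice of regions fixes. KO rows keep other peaks around Lmo2 and Myc and have 1 to 3 peaks in the beta-globin panel.

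By the lists of genes that lay nearest, loss was most frequent around erythroid genes. Of 58 regions between genes nearest to GATA and erythroid genes and present in all 3 WT samples, 26 (44.8%) were lost, against 19.3% of all such regions. Zfpm1 had 3 of 4 lost, Hbb-y 3 of 4, Car2, a red cell carbonic anhydrase gene, 3 of 6 and Lmo2 6 of 13. The list had lost regions at 13 of its 43 annotated genes. With the widest 50% of each sample's peaks, which leaves fewer regions, the share was 72.4% (21 of 29), where 25.2% of all regions were lost. Within 100 kb of a gene of the list it was 36.9% (52 of 141). With a gene window of 10 kb it was 37.9% (11 of 29), below the 38.7% (29 of 75) of stem and progenitor genes. On leaving out single samples it ranged from 44.8% to 51.7%. Erythroid gene ends went the same way in the marker counts given above, which have no share over all genes beside them. The part of cell composition in the share of erythroid regions lost was not tested.

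Zfpm1 encodes FOG1, the cofactor of GATA1. The member 3914 bp upstream of it had peaks of 400, 629 and 555 bp in WT samples 1 to 3, and the ones 3150 and 5007 bp downstream had 578, 717 and 1236 bp and 311, 262 and 440 bp. Inside the gene and at its ends 8 of 14 regions of the 3 WT samples were lost as well. The Slc4a1 member, on chromosome 11 at 102375030 to 102376276, had 1130, 1247 and 1205 bp in WT samples 1 to 3. It was chosen as an example after its values were seen, as were the next 2 genes. Gfi1b, which encodes a repressor needed for red cells and platelets, had 2 of 5 regions lost and Aqp1, encoding a water channel of the red cell membrane, 2 of 3. Gata1 had no region between genes in all 3 WT samples, and Gata2 and Tal1 had 2 each and lost 0. Inside these genes and at their ends, Gata1 lost 3 of 3 such regions, Gata2 0 of 3 and Tal1 1 of 3.

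Regions nearest to stem and progenitor genes were lost in 33 of 89 cases (37.1%), with 9 of the 33 nearest to Myc and 8 to Runx1. Runx1, a master transcription factor of blood formation, had 8 of 18 lost, at 42505 to 371203 bp upstream. The widest of them, 303321 bp away, had peaks of 633, 561 and 841 bp in WT samples 1 to 3. The share was 18% (18 of 100), no longer above the 19.3% over all regions, when regions within 100 kb of a gene of the list were counted, whichever gene was nearest. With equal list lengths it was 27.1%, where 1569 members (15.0%) were found in all.

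Kit, the receptor for stem cell factor, had 3 of 6 regions lost. The one 114032 bp upstream of it, on chromosome 5 at 75460159 to 75460954, had peaks of 584, 582 and 796 bp in WT samples 1, 2 and 3, and those 87790 and 104922 bp downstream had 385, 351 and 407 bp and 573, 863 and 912 bp. Myb, another transcription factor of progenitors, is known for a string of upstream enhancers used in erythroid cells. It had 2 of 5 regions lost, at 35610 bp (449, 474 and 516 bp wide) and 60163 bp (788, 649 and 966 bp) upstream. Meis1, a partner of HOX proteins, had 3 of 6 lost, 125257 to 247714 bp away.

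The lists of other blood lineages had shares below the 19.3% over all, an order that some settings turned. Granulocyte and monocyte genes lost 4 of 75 (5.33%), with 1 of 18 at Cebpb, 1 of 9 at Irf8 and 2 of 3 at Fcnb. The pair near Fcnb, a gene of the ficolin family of myeloid cells, was wide, with peaks of 689, 929 and 1051 bp and of 703, 829 and 975 bp in WT samples 1 to 3. B lymphoid genes lost 4 of 44 (9.09%), with 2 of 5 at Bach2 and 1 each of 11 at Bcl11a and of 13 at Foxo1. Megakaryocyte and platelet genes lost 2 of 22 (9.09%), 1 of 18 at Thbs1 and 1 of 1 at Vwf. Allowing a peak in 1 of 3 KO samples and asking for 2 of 3 WT samples, the granulocyte share was 23.3% (21 of 90) and the megakaryocyte share 28.0% (7 of 25), where 36.3% of all regions passed. In that setting mast cell and basophil genes, at 58.3% (7 of 12), and stroma and endothelium genes, at 48.3% (14 of 29), lay above the share over all regions. With the widest 50% of peaks mast cell losses were 3 of 3. Within 100 kb of a gene of the list, megakaryocyte losses were 11 of 42 (26.2%), above the share over all regions. Without KO sample 2 the granulocyte share was 9.33% (7 of 75) and the megakaryocyte share 18.2% (4 of 22), against 24.6% over all regions.

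For the small lists, T and NK lymphoid genes lost 2 of 18 (1 of 1 at Prf1 and at Thy1), dendritic cell genes 1 of 13 (at Tcf4), mast cell and basophil genes 1 of 8 (at Cma1) and housekeeping genes 1 of 20 (at Ywhaz). Stroma and endothelium genes lost 3 of 18, with 2 of 4 at Pdgfra and 1 of 1 at Col1a2. ETS factor genes lost 8 of 39 (20.5%), near the share over all, with 3 of 3 at Ehf, 2 of 10 at Ets1, 1 of 1 at Elf3, and 1 of 5 at Elk3 and at Ets2. These small counts rest on single samples, since without KO sample 1 mast cell losses were 3 of 8, against 21.5% over all regions. Without KO sample 2 dendritic cell losses were 3 of 13, against 24.6%, and without WT sample 1 T and NK losses were 5 of 22, against 22.6%.

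**Figure D5:**
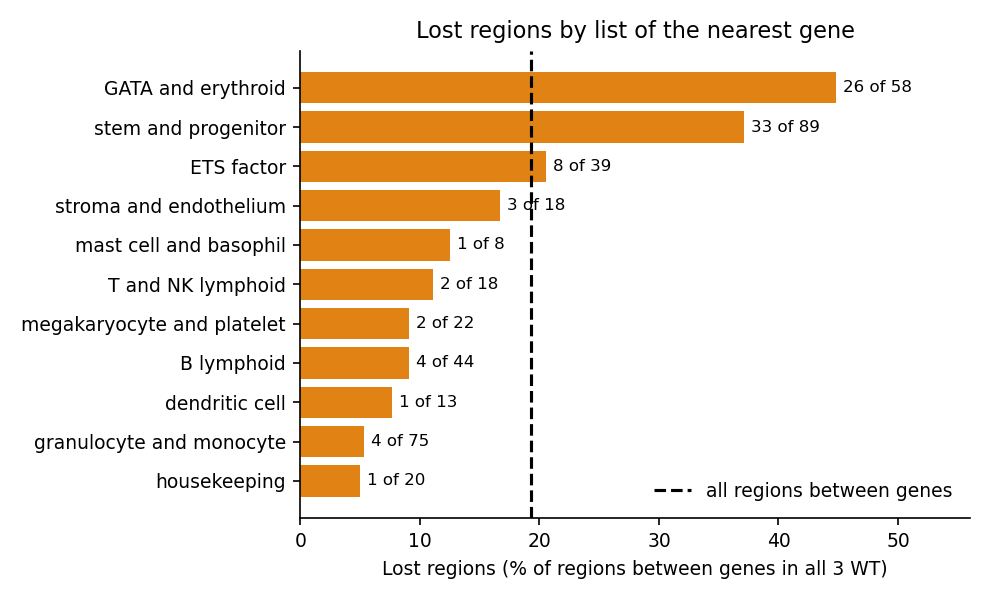
Bars give the percentage of regions between genes in all 3 WT samples that were lost (x axis), by the gene list of the nearest protein-coding gene (rows), with the counts beside them. The dashed line is the 19.3% over all regions between genes, and GATA and erythroid genes (44.8%) and stem and progenitor genes (37.1%) reach farthest past it.

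In all, 1990 protein-coding genes were nearest to a member, 1458 of them to 1 and 68 to 4 or more. Camk1g and Pik3r1, which encodes a regulatory subunit of PI3 kinase, had 10 each, of 17 and 23 regions of the 3 WT samples. Gm38457 had 9 of 16 and Myc 9 of 25. Adgrl2, a receptor gene, had 8 of 43, Map3k1 8 of 20 and Runx1 8 of 18. Parp11 had 7 of 16, Cd24a 6 of 13 and Cited2 6 of 28. The shares lost at Adgrl2 (18.6%) and Cited2 (21.4%) lay near the 19.3% over all regions between genes. Near Cd24a, a surface antigen gene of early blood cells, 6 of 13 were lost, with the widest at 775, 859 and 946 bp in WT samples 1 to 3. Of 1774 genes with 3 or more regions between genes in all 3 WT samples, 27 lost every one, and 781 lost none. Among the 27 were Ackr3 and Chst1 with 5 of 5 each, and Ackr1, the gene of the Duffy blood group antigen in humans, with 3 of 3. These 3 were picked as examples after their values were seen.

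The widest member lay 51486 bp from Phc1, a Polycomb gene, on chromosome 6 at 122391714 to 122394953, and measured 1477, 2152 and 3230 bp in WT samples 1 to 3. The next lay 11297 bp from Hsph1, a heat shock protein gene, on chromosome 5 (149647796 to 149649892), at 2006, 1924 and 2097 bp. One 9224 bp from Add3, encoding a protein of the membrane skeleton, on chromosome 19 (53256551 to 53258571) had 1805, 1954 and 1867 bp. After these came members near Aqp4, Mindy4, Prkaa1, Dipk2a, Eif5a2, Cldn13 and Agtr1a, with mean widths of 1750 to 1329 bp. At the Phc1 region WT sample 1 was low and WT sample 3 high.

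The most remote members had no gene near. On chromosome 10, 3 lay 1358797, 1169595 and 1084772 bp upstream of Cited2, a regulator of stem cell maintenance, with mean peaks of 392, 367 and 260 bp. Others lay 1086166 bp from Slc10a2 and 954083 bp from Nudt12.

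Non-coding genes overlapped members about as often as other regions. A lncRNA gene overlapped 622 members (21.8%), 23.8% of the regions in all 6 samples and 21.8% of gained regions. The members lay on 521 lncRNA genes, with the most on Pvt1 (9), Gm31870 (7) and A930011G23Rik (6). The 5 widest of these members lay over 1700063H04Rik, Gm30230, 1700112D23Rik, Gm36268 and Gm42029. The last 2 had peaks of 1207, 1243 and 1261 bp and of 1203, 1184 and 1311 bp in WT samples 1 to 3. Transfer RNA genes overlapped 7 members (0.245%), and 0.912% of the regions in all 6 samples.

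No member overlapped a microRNA (miRNA) gene, and 14 lay within 5 kb of one, 0.490% against 0.615% of regions in all 6 samples. A pair lay on the same side of the gene of miR-144, which shares a transcript with miR-451a and acts with it in red cell precursors. On chromosome 11, the member from 78069346 to 78070356 ends 2648 bp before Mir144 and had peaks of 867, 957 and 998 bp in WT samples 1 to 3. The other, from 78065612 to 78066419, lies 6585 bp away and had 543, 585 and 808 bp. The miRNAs were looked up after the values were seen. The mature sequences that this locus makes are shown, from RefSeq, with the seed (bases 2 to 8) in capitals.

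miR-144-3p: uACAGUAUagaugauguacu

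miR-144-5p: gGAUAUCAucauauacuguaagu

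miR-451a: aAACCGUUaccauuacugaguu

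Their seeds differ from each other. The members closest to any miRNA gene lay 56 bp from Mir130a (275, 240 and 207 bp wide in WT samples 1 to 3) and 294 bp from Mir196b beside Hoxa9, a homeobox gene of progenitors. That region had 1029, 451 and 328 bp, with WT sample 1 far above the others.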

How the data were processed

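The authors deposited 1 peak list per sample, which holds positions alone and no score or count. The submitters' processing notes name MACS2 and mm10 without a version, and the file labels carry a p threshold of 1e-11. Aligner, read filters and any shift of insertion sites: not given in the sources used here. Starts were read as counted from 0 and are printed counted from 1.

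Peaks were merged, and regions placed against 21887 RefSeq protein-coding genes, with Python 3.11.15, numpy 2.4.6, pandas 2.3.3 and scipy 1.17.1. The 41 regions on unplaced contigs were left out. The procedure was tested on simulated lists. The nearest gene was the one with the fewest bases between. Values per sample were tested by exact two-sided permutation over the 10 splits. Motifs were searched on both strands in RefSeq promoter windows, 1 per region, since no genome was used. Replicate numbers were not used to pair the samples in these tests.

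The members, the 11 gene lists (219 entries, 215 genes, 1 of them, Ahsp, not matched) and the tests were chosen with earlier results of these data known. Named were the 10 widest members, the 10 genes nearest to the most members, the 5 largest runs, the 5 most remote members, up to 4 genes per list, the 5 widest members over lncRNA genes, 10 genes of blood regulation, and members at the limit of the gene window. The text says where others were picked after their values were seen. Alternatives were other samples, peaks, windows, gene sets, overlaps and widths.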

Additional observations from a re-analysis of the deposited data

How the results depend on the processing

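Of the alternatives, those for the gene lists and the motif shares were chosen after seeing the data, apart from counting regions within 100 kb. Leaving out single samples gave 3016 to 3641 lost regions between genes, 20.4% to 24.6% of those in all WT samples used. The count was 1381 (25.2%) with the widest 50% of peaks, 1569 (15.0%) with equal list lengths, 1854 with a gene window of 10 kb, 6669 (36.3%) when peaks in at most 1 of 3 KO and at least 2 of 3 WT samples sufficed. Among regions 400 bp or longer it was 1594 (14.9%). The share was 22.4% when peaks had to cover 50% of the region. The difference in the share of peaks between genes, KO minus WT, was 1.97 percentage points with equal list lengths, 0.731 and 0.980 with gene windows of 5 and 10 kb (exact permutation p = 0.1 each), -0.615 with the widest 50% and -0.0871 with all RefSeq genes, and ran from -0.193 to 0.443 on leaving out single samples. With equal list lengths, the difference KO minus WT was 879 peaks between genes and -44 bp in median width (exact permutation p = 0.1 each). Equal lengths came from keeping the widest peaks, a cut that can itself move these values. On leaving out single samples the difference in peaks was -4286 to -3105 and in median width 9.17 to 12.7 bp. Erythroid losses were 72.4% with the widest 50%, 36.9% within 100 kb, 40% and 37.9% with gene windows of 5 and 10 kb, and 44.8% to 51.7% on leaving out single samples. Stem and progenitor losses were 18% within 100 kb, 27.1% with equal list lengths, and 36.8% to 40% on leaving out single samples. GATA letters were in 67.4% of windows of lost regions of at least 400 bp, in 72.7% of windows wholly in the region, and in 48.6% to 54.9% on leaving out single samples. The cause of these changes was not tested. Runs numbered 424 and 594 at 20 and 100 kb. With the replicate number as a block (replicate block, exact sign-flip test), the KO minus WT differences were 0.182 percentage points, -3514 peaks and 10.3 bp (p = 0.75, 0.25 and 0.25). The smallest p that this sign-flip test allows is 0.25, so no call could change. Deviations of peak width from the group mean correlated at -0.0459 to 0.0478 between same-numbered samples, and at -0.0890 to 0.0860 between others. Pairing was thus not seen in peak width, which cannot settle whether the numbers pair the samples. Unknown depth limits every count.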
